A study of Rattus norvegicus with 164 samples.

Results

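The low-Gad2 libraries were 7 RNA-seq libraries of rat prelimbic cortex in which Gad2, the gene for glutamate decarboxylase 65, stood far below its level in the rest of the cortical libraries. They were chosen by 2 measured values. After each library was scaled to a sum of 1000000 and put on a log2(CPM + 1) scale, where CPM is the count per 1000000 counts of the library, libraries with Drd2 above 6 were set aside, and those of the remaining libraries with Gad2 below 4.7 formed the low-Gad2 group. This gave 7 low-Gad2 libraries in a table of 130 libraries, of which 11 were set aside for Drd2, the D2 dopamine receptor gene that marks the striatum, and not used further. The remaining cortical libraries, 56 of the decimal identifier series and 56 whose identifier starts with E21DCD, are called the others.

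The rats were outbred heterogeneous stock animals, bred from several inbred strains so that each animal carries its own mix of their alleles, and the study profiled 3 brain regions for genetic analyses. Libraries were made from polyadenylated RNA of prelimbic tissue, part of the medial prefrontal cortex. The labels give no treatment, genotype, age, sex, RNA integrity value or dissection record, and the low-Gad2 libraries differ from the others in them only by identifier, apart from 11 of the others whose label notes an earlier name, changed after a mismatch of genotypes. Identifiers come in a decimal series and a series that starts with E21DCD; those 11 also start with E21DCD and are called reassigned here. Of the low-Gad2 libraries, 6 were of the E21DCD series (numbers 2, 4, 8, 19, 30 and 49) and 1 was decimal (number 15).

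GABA, the main inhibitory transmitter of the cortex, is made by 2 decarboxylases, the products of Gad1 and Gad2, which cortical interneurons express together. The same cells carry Slc32a1, which loads GABA into vesicles, and subtype peptides such as Sst and Npy. Large ion channels, receptors and adhesion proteins of neurons are often encoded by very long genes, whereas most subunits of the respiratory chain and of the ribosome are encoded by short genes with abundant, short transcripts.

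Gad2 (chromosome 17, start site 89671718 in the GRCr8 build, span 62.5 kb) was at 2.37 in decimal 15, 3.62 in E21DCD 2, 4.10 in E21DCD 4, 4.27 in E21DCD 8, 2.64 in E21DCD 19, 2.89 in E21DCD 30 and 2.59 in E21DCD 49. Over the others the lowest Gad2 value was 5.14, the median 6.22 and the highest 6.52. As these values chose the libraries, their separation is a description and was not tested. The low-Gad2 libraries averaged 3.21 ± 0.77 (SD, n = 7) and the others 6.14 ± 0.26 (SD, n = 56 decimal and 56 E21DCD or reassigned), and the median of the low-Gad2 libraries came to 9.97% of the median of the others on the CPM + 1 scale. Just inside the threshold stood E21DCD 8 at 4.27 and E21DCD 4 at 4.10, and just outside it decimal 7 at 5.14, E21DCD 22 at 5.33 and decimal 12 at 5.37. Scaling by median-of-ratios size factors, or taking Gad2 minus Gad1 within each library, put the same 7 libraries lowest. Both measures use the Gad2 counts that chose the libraries, so they give no separate support for the group. With Gad2 minus Gad1 the low-Gad2 libraries ran from -4.93 to -2.60 and the others from -2.27 to -1.24.

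Slc17a7, which loads glutamate into vesicles of excitatory neurons, had a median of 10.99 in the low-Gad2 libraries (9.58 to 11.12) and of 10.83 in the others (10.43 to 11.20). Low Drd2 was part of the rule and is no check of the cortical label. Summed counts ran from 15.1 to 37.7 M (units of 1000000) in the low-Gad2 libraries and from 16.9 to 55.95 M in the others, a difference that an exact two-sided Mann-Whitney test did not separate (p = 0.209, medians 22.4 and 26.2 M). Between 20516 and 24328 genes were above 0 in the low-Gad2 libraries, against 22643 to 26540 in the others. No pair of the low-Gad2 libraries held identical values.

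Among the low-Gad2 libraries decimal 15 stood apart. Its median deviation over all genes from the medians of the others was -0.84, where the median of the 7 was -0.10 and the highest -0.01. A single gene, Zfp532, took 15.1% of its counts, the immediate early gene Fos was at 0.35, and the 45S ribosomal precursor gene Rn45s was at 10.04, against a highest value of 9.22 in the others. Of 62 E21DCD and reassigned libraries, 6 (9.68%) were low in Gad2, against 1 of 57 decimal libraries (1.75%), a difference that Fisher's exact test did not separate (two-sided p = 0.116, odds ratio 6.0). With the 11 reassigned libraries left out, which held no low-Gad2 library, the share was 6 of 51 E21DCD libraries (11.8%) against the same decimal share (p = 0.0504).

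Gad2 was one of many genes with this pattern. Of 15123 genes with a mean level of at least 1, all 7 low-Gad2 values lay below the whole range of the others for 948 genes (6.27%) and above it for 240 genes (1.59%). Without decimal 15, 983 genes lay below and 479 above, counts that leaving out a library can only keep or raise. Taken singly, the low-Gad2 libraries had 2725 (E21DCD 8) to 9090 (decimal 15) genes below the range of the others and 1729 (decimal 15) to 2366 (E21DCD 8) above it. Among the others, decimal 7 stood lowest of all in 2751 genes, against a median of 77.5 genes per library. The genes below made up 79.8% of these separated genes, and 52.8% under median-of-ratios scaling, under which the median difference of all genes was -0.01 in place of -0.12. For 1632 genes (10.8%) all 7 values lay inside the range of the others, and the remaining genes were partly outside it. A difference in what follows is the median of the low-Gad2 libraries minus the median of the others, in log2 units, and "below" or "above" means that all 7 values lay outside the range of the others. Since Gad2 chose the libraries, every gene of this contrast is described by its values and no test is given. List medians below are read against the median of -0.12 over all genes. In bulk tissue RNA, fewer cells of a type and less RNA per cell cannot be told apart.

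Kif5c, Ccnd2 and Chrnb2 were named as markers with earlier results of these data known. Their separation, and smaller differences in their relatives, are therefore described and are no test. Within their families the differences varied. Kif5c, a neuronal kinesin heavy chain that carries cargo along microtubules (chromosome 3, start site 54441266), was at 6.01 in decimal 15, 6.37 in E21DCD 2, 6.46 in E21DCD 4, 7.95 in E21DCD 8, 7.34 in E21DCD 19, 6.31 in E21DCD 30 and 5.47 in E21DCD 49, against 8.18 to 9.37 (median 9.00) in the others. All 7 lay below the others, a difference of -2.64. Kif5a, its other neuronal relative, had a median of 7.25 in the low-Gad2 libraries and 10.10 in the others (difference -2.85), and its highest low-Gad2 value, 9.30 in E21DCD 8, only just reached the lowest of the others, 9.26. Kif5b, the widely expressed member, differed by -0.65, with ranges of 5.69 to 7.11 in the low-Gad2 libraries and 6.90 to 8.25 in the others that overlapped.

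Ccnd2, a D-type cyclin of the cell cycle (chromosome 4, start site 161675422), lay between 1.92 and 3.06 in the low-Gad2 libraries (median 2.54) and between 4.28 and 5.42 in the others (median 5.06), a difference of -2.51. Its relatives did not follow. Ccnd1 had medians of 4.46 in the low-Gad2 libraries and 4.48 in the others (difference -0.02, and 0.36 under median-of-ratios scaling), and Ccnd3 was higher by 0.36, at a median of 5.33 in the low-Gad2 libraries and 4.97 in the others. Chrnb2, the beta2 subunit of nicotinic acetylcholine receptors (chromosome 2, start site 177487306), ran from 1.91 to 3.84 in the low-Gad2 libraries (median 2.76) and from 4.72 to 5.77 in the others (median 5.52), a difference of -2.76. Chrna4, the alpha4 subunit that pairs with it in the common brain receptor, differed by -0.45, with overlapping ranges of 5.29 to 6.05 in the low-Gad2 libraries and 5.38 to 6.53 in the others. The alpha5 subunit gene Chrna5 differed by -1.38. Of 10 nicotinic and muscarinic receptor genes tested, 9 had a negative difference (median -0.39) and 1 was below, near the 6.27% of all genes.

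Gad1, which encodes the other GABA-making enzyme, glutamate decarboxylase 67, was much closer to its level in the others than Gad2. It was at 6.41 in decimal 15, 7.51 in E21DCD 2, 7.63 in E21DCD 4, 6.87 in E21DCD 8, 6.99 in E21DCD 19, 7.31 in E21DCD 30 and 7.53 in E21DCD 49, against 7.02 to 7.97 (median 7.77) in the others. Its difference was -0.46, so the median of the low-Gad2 libraries was 72.7% of the median of the others, and the ranges overlapped.

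**Figure D1:**
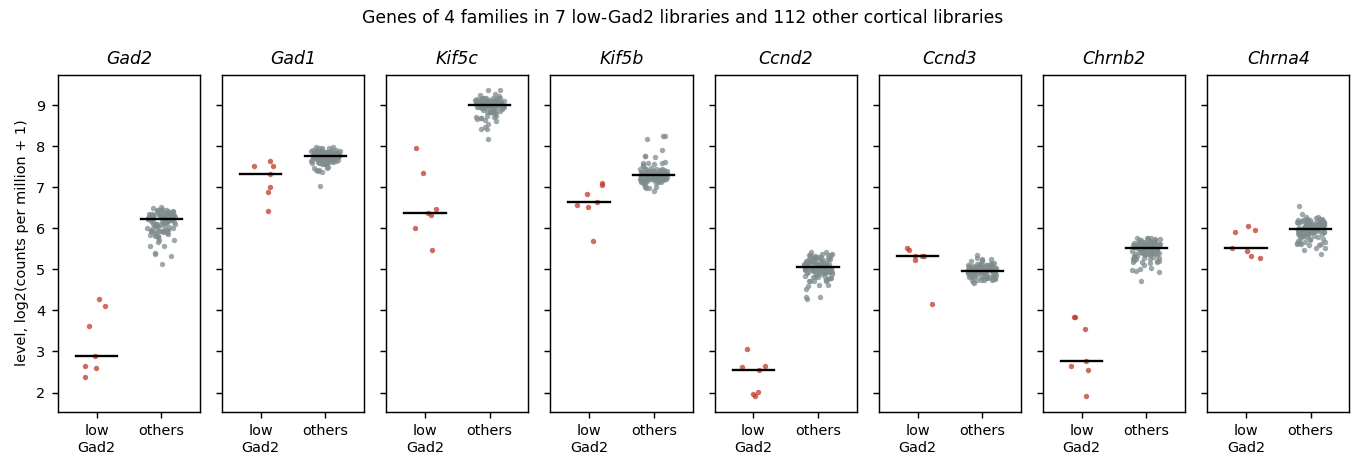
Levels of Gad2, Kif5c, Ccnd2 and Chrnb2, each beside a gene of the same family, in log2(CPM + 1). Each point is 1 library, low-Gad2 (7) left and others right, and the black line is the group median. The first gene of each pair separates the groups without overlap, whereas Gad1, Kif5b, Ccnd3 and Chrna4 overlap. Kif5a and Chrna5, which differed more than Kif5b and Chrna4, are not shown.

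Other genes of GABAergic interneurons were split, with 14 of 22 at a negative and 8 at a positive difference. Sst, Npy and Pvalb were picked from them after their values were seen. Slc32a1, the vesicular GABA transporter, ran from 5.87 to 6.41 in the low-Gad2 libraries (median 6.21) and from 5.96 to 6.68 in the others (median 6.29), a difference of -0.08, or 0.02 under median-of-ratios scaling. Of the peptide genes picked, Sst was higher by 0.78 (7.68 to 8.91 in the low-Gad2 libraries, 6.82 to 7.91 in the others). Npy was higher by 0.75 (5.67 to 7.12 in the low-Gad2 libraries, 5.07 to 6.21 in the others). The peptide genes Vip and Tac1 of the same list are not reported here. Pvalb, the calcium buffer of fast-spiking interneurons, was higher by 0.81, at a median of 5.85 in the low-Gad2 libraries and 5.05 in the others. Reln, a long gene (427 kb) for a secreted matrix protein made by some interneurons, was the lowest of the list by difference at -1.27, and Cck, a peptide gene of 6.69 kb, was the highest at 0.89.

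Over 22 genes of GABAergic neurons, 1 was below and 0 above, and the median difference was -0.09, against -0.12 over all genes; it was 0.04 under median-of-ratios scaling, where it was on the other side of 0. The list's mean deviation was at -0.77 in decimal 15 and up to 0.15 in the other low-Gad2 libraries, against -0.43 to 0.17 in the others. The 18 genes of glutamatergic neurons gave 1 below and 0 above and a median difference of -0.20, which was -0.04 without decimal 15 (all genes -0.09) and 0.02 under median-of-ratios scaling. The extremes of that list were Rorb, a transcription factor of layer 4 neurons (181 kb), which was below at a difference of -1.88, and Nrgn, a short calmodulin-binding postsynaptic gene, which was higher by 1.06.

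Among genes that were below, had a median of at least 3 in the others and a symbol that names no predicted locus, pseudogene or copy, the 12 with the lowest difference belonged to no single family. Slc7a14, a solute carrier of the cationic amino acid transporter family, had the lowest difference at -3.99, with 0.98 to 1.73 in the low-Gad2 libraries and 3.64 to 5.74 in the others. Adcy1, the calcium-stimulated adenylyl cyclase of neurons, followed at -3.75, with 2.47 to 4.05 in the low-Gad2 libraries and 5.19 to 7.94 in the others. In both genes every low-Gad2 value was more than 1 unit below the lowest of the others.

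The next were Gda, a guanine deaminase (-3.63), Necab1, a neuronal calcium-binding protein (-3.51), Grik3, a kainate receptor subunit (-3.48), Phlpp2, a phosphatase that acts on Akt (-3.47), and Zbed6, a transcription factor (-3.44). Hspa13, a member of the Hsp70 family (-3.33), Lrrc58 (-3.32), Cds2, an enzyme of phosphatidylinositol synthesis (-3.30), Megf9 (-3.27) and Mtmr9, a myotubularin-related protein (-3.27), completed them. Zbed6 spans only 6.27 kb and Lrrc58 12.3 kb, so not all of the lowest genes were long.

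The 12 highest genes were taken in the same way from those above with a median of at least 3 in the low-Gad2 libraries, so genes with larger differences whose groups overlapped are not among them. Gins2, a subunit of a DNA replication complex, led them at 3.38, with 3.65 to 5.08 in the low-Gad2 libraries and 0.17 to 2.13 in the others. It was followed by Cnbd2 (2.17), Inafm1 (1.81) and Rad52, a DNA repair gene (1.77). Next came Romo1, of the mitochondrial inner membrane (1.48), Rplp2, of the ribosomal stalk (1.37), Smim27 (1.34), the cytochrome c oxidase subunits Cox6a1 (1.29) and Cox6c (1.28), Rnasek (1.26), the Na,K-ATPase regulator Fxyd7 (1.26) and the ATP synthase subunit Atp5mpl (1.25). Cox6a1 ran from 8.99 to 9.56 in the low-Gad2 libraries and from 7.35 to 8.68 in the others.

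Among the gene lists examined, complex I of the respiratory chain held the most genes above. This complex, which passes electrons from NADH to ubiquinone, had 18 of 38 subunit genes above and 0 below, with a median difference of 0.82. Ndufs6, a complex I subunit, was at 7.04 in decimal 15, 6.59 in E21DCD 2, 6.40 in E21DCD 4, 6.64 in E21DCD 8, 6.75 in E21DCD 19, 6.25 in E21DCD 30 and 6.74 in E21DCD 49, against 5.27 to 6.25 (median 5.66) in the others. All 7 were above, though E21DCD 30 only just. Ndufb4 had the highest complex I difference (1.24), without full separation, and Ndufa3 was above at 1.17. Ndufs1, the large core subunit, was the 1 member of 38 with a lower median, at 7.00 in the low-Gad2 libraries and 7.35 in the others (-0.35), and decimal 15 was far down at 4.86.

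Complex IV, which reduces oxygen, had 5 of 14 genes above (median difference 0.95), complex III 2 of 9 (0.70) and the ATP synthase 1 of 18 (0.82), and in these 3 lists every gene had a positive difference. Complex II, whose 4 subunits also serve the citric acid cycle, had 0 above and 0 below (0.55). The 73 mitochondrial ribosomal proteins gave 11 above and 0 below with a median difference of 0.53, led by Mrpl52 at 1.17. None of these 6 lists had a gene below, while 6.27% of all genes were below and 1.59% above; 1 of 18 and 0 of 4 are too few to be read against 1.59%.

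Cytosolic ribosomal proteins were higher too, but less cleanly separated than complex I. Of 78 genes, 76 had a positive difference and the median was 0.80. Of the same 78, 4 were above and 0 below, where 1.59% of all genes were above and 6.27% below. Rps29 was at 10.62 in decimal 15, 8.46 in E21DCD 2, 8.22 in E21DCD 4, 8.98 in E21DCD 8, 9.48 in E21DCD 19, 8.83 in E21DCD 30 and 9.19 in E21DCD 49, and the others ran from 7.04 to 8.26 (median 7.43). All but E21DCD 4 were above the others. Rps20 was the lowest of the list at -1.16, with a median of 1.47 in the low-Gad2 libraries and 2.63 in the others. Ribosomal protein genes have many near-identical copies in the genome, so the split of reads between them is uncertain.

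Ion channel genes lay at the other end. Of 25 sodium and calcium channel genes, 8 were below and 0 above, with a median difference of -0.92, and of 28 potassium channel genes 6 were below and 0 above (-0.77), where 6.27% of all genes were below. Cacna1e, the pore subunit of R-type calcium channels (489 kb), was at 6.37 in decimal 15, 6.88 in E21DCD 2, 6.91 in E21DCD 4, 6.72 in E21DCD 8, 6.67 in E21DCD 19, 7.17 in E21DCD 30 and 7.00 in E21DCD 49, against 7.33 to 9.07 (median 8.58) in the others. It was below in all 7. Scn2a, a sodium channel pore of excitatory neurons (135 kb), differed by -1.06. Kcnj9, a G protein-gated potassium channel of only 7.10 kb, was below at -2.17, with 2.86 to 4.58 in the low-Gad2 libraries and 5.40 to 6.67 in the others.

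Receptor and synapse genes also had lower medians, with complete separations that varied by list. Ionotropic glutamate receptors had 4 of 17 below and a median difference of -0.66; Gria2, the AMPA receptor subunit that sets calcium permeability, differed by -0.91. GABA-A receptor subunits had 1 of 12 below (-0.56), which was Gabrg3 (623 kb) at -2.26, and metabotropic glutamate receptors 0 of 7 below (-0.69); counts of 1 of 12 and 0 of 7 are near the 6.27% of all genes. Among 28 synaptic adhesion genes, all had a negative difference and 4 were below, with a median of -0.86. Nrxn3, a presynaptic neurexin and one of the longest genes at 1631 kb, ran from 3.42 to 5.98 in the low-Gad2 libraries and from 6.91 to 7.95 in the others (-2.68).

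Presynaptic release genes were mixed. Of 25, 2 were below and 0 above, near the 6.27% of all genes, with a median difference of -0.30 (-0.16 under median-of-ratios scaling). Pclo, a giant scaffold of the active zone (359 kb), differed by -1.33, while Vamp2, the small vesicle SNARE (4.24 kb), was higher by 0.42. Postsynaptic scaffolds gave 0 of 20 below and 1 above, with a median difference of -0.46, which was -0.23 without decimal 15 and -0.24 under median-of-ratios scaling.

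Large cytoskeletal proteins gave 5 of 20 below and 0 above with a median difference of -0.98, and all 20 had a negative difference. Ank2, an ankyrin that anchors membrane proteins (576 kb), was below at -1.55, with 7.62 to 9.01 in the low-Gad2 libraries and 9.09 to 10.27 in the others. Dst, a very large linker of filaments, differed by -1.71, whereas Mapt, which encodes tau, differed by -0.25. Among 24 kinesin and dynein genes 19 had a negative difference (median -0.44), 4 were below and 1 above, the dynein light chain Dynlrb1 at 1.03. The mean deviation of that list ran from -1.54 to -0.33 in the low-Gad2 libraries and from -0.20 to 0.08 in the others. Both lists are read against the 6.27% of all genes below and 1.59% above.

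Chromatin regulators had 7 of 20 below and a median difference of -0.91, and Kmt2a, a histone methyltransferase, differed by -1.35. Of 265 zinc finger genes, a large class of DNA-binding proteins, 21 were below and 4 above, close to the 6.27% and 1.59% of all genes, and the median difference was -0.37. Of 35 clustered protocadherins, neuronal surface proteins encoded in tandem arrays, 2 were below and 0 above, again close to the 6.27% of all genes, with a median of -0.47 and extremes of -2.82 in Pcdhgc5 and 1.96 in Pcdhga1. Some of these array genes share 3' exons, so the split of reads between those is uncertain.

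Some lists had members at both ends. In RNA polymerase II, Polr2b, the second largest subunit (37.7 kb), was below at -0.63, with 3.78 to 5.45 in the low-Gad2 libraries and 5.48 to 6.09 in the others, and Polr2i, a small subunit (1.44 kb), was above at 0.84, with 4.25 to 5.26 in the low-Gad2 libraries and 2.92 to 4.24 in the others. Of the 13 genes of that complex, 11 had a positive difference (median 0.52), 1 was below and 2 were above. Over all genes 6.27% were below and 1.59% above. The mean deviation of that list ran from 0.28 to 0.57 in the low-Gad2 libraries and from -0.19 to 0.30 in the others. Among 16 chaperones 2 were below and 1 above (median difference -0.26). The cytosolic chaperone Hsp90aa1 (6.08 kb) was below at -1.61 and the mitochondrial co-chaperonin Hspe1 (3.09 kb) was above at 1.06. In the proteasome 1 of 38 genes, Psmb3 at 1.10, was above and 0 were below (median difference 0.25), near the 1.59% of all genes above.

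**Figure D2:**
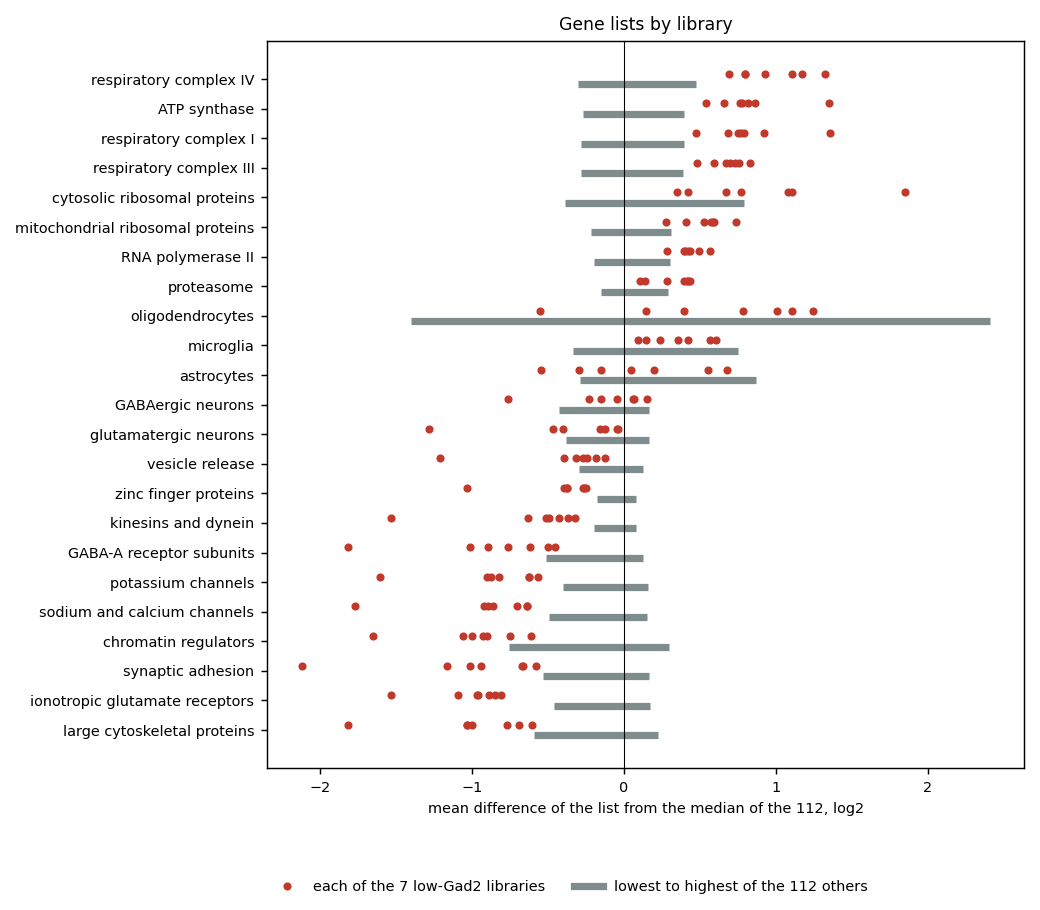
Mean deviation of each gene list from the medians of the others, in log2 units, with 1 red point for each of the 7 low-Gad2 libraries above a grey bar from the lowest to the highest of the others. The points of complexes I, III and IV and the ATP synthase lie right of the bars, those of the channel, adhesion, ionotropic glutamate receptor and large cytoskeletal lists left of them, and those of the cell type lists mostly on them; the leftmost point of most lower lists is decimal 15.

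Gene span, the distance from the first to the last base of the annotated gene, ordered these differences. The median difference was 0.25 for 3747 genes under 10 kb, -0.05 for 4793 genes of 10 to 30 kb, -0.29 for 4272 genes of 30 to 100 kb, -0.47 for 1759 genes of 100 to 300 kb and -0.61 for 552 genes over 300 kb. The share of genes below went up along the same bins, at 1.81%, 3.34%, 9.25%, 13.2% and 16.8%, and the share above was 4.75% in the shortest bin and 0.181% in the longest. Across genes, which are not independent replicates and share the same libraries, Spearman's rho between span and difference was -0.49 (n = 15123), while rho between mean level and difference was -0.08. The spread within bins stayed wide: the lower quartile of genes under 10 kb was at -0.09, and the upper quartile of those over 300 kb at -0.27.

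Genes of the neuronal channel, receptor and synapse lists were lower than the rest at like span. Their median difference was -0.27 for 13 genes under 10 kb and -0.86 for 56 genes over 300 kb, and that of all other genes was 0.25 for 3734 genes and -0.59 for 496 genes in the same bins. Long genes outside those lists were thus lower as well.

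Each low-Gad2 library showed the trend on its own. The span contrast of a library, the median deviation of genes over 300 kb minus that of genes under 10 kb, was -1.61 in decimal 15, -0.79 in E21DCD 2, -0.77 in E21DCD 4, -0.96 in E21DCD 8, -0.93 in E21DCD 19, -0.63 in E21DCD 30 and -0.92 in E21DCD 49. In the others it ran from -0.45 to 0.23, so the groups did not overlap. Of the libraries just outside the threshold, E21DCD 22 had -0.42, decimal 12 -0.31 and decimal 7 -0.27. The difference between the longest and the shortest bin was -0.86 for the 7 libraries and -0.83 without decimal 15.

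**Figure D3:**
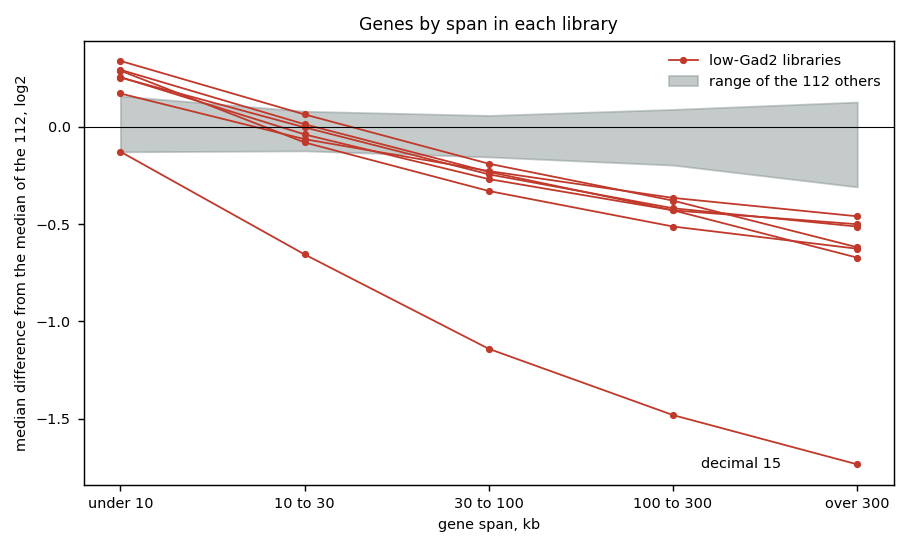
Median deviation of genes from the medians of the others, in log2 units, for 5 bins of gene span in kb; each red line is 1 low-Gad2 library and the grey band spans the lowest to the highest of the others. All 7 lines slope down and lie below the band for genes over 30 kb, and decimal 15 is the lowest line.

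Marker genes of oligodendrocytes, microglia and blood and the ribosomal RNA genes had higher medians in the low-Gad2 libraries than in the others, with overlap. Of 14 oligodendrocyte genes 13 had a positive difference, with a median of 0.77 and none above or below; Mbp, a major myelin protein, had a median of 11.64 in the low-Gad2 libraries and 10.60 in the others, and Cldn11, a myelin tight junction protein, was higher by 1.39. The mean deviation of that list ran from -0.55 to 1.24 in the low-Gad2 libraries, inside the -1.40 to 2.41 of the others. Microglial genes had a median difference of 0.40 (14 genes), with the complement gene C1qb higher by 1.00, and blood genes one of 0.80 (8 genes), with the haemoglobin gene Hba-a1 higher by 1.56; no gene of either list was above or below. The mean deviation of the microglial list ran from 0.09 to 0.61 in the low-Gad2 libraries and from -0.33 to 0.75 in the others, and that of the blood list from 0.01 to 1.16 in the low-Gad2 libraries and from -0.95 to 1.73 in the others. Astrocyte genes had a median difference of 0.13 (12 genes). The 3 ribosomal RNA genes had a median difference of 1.50 and a list mean between 1.08 and 4.86 in the low-Gad2 libraries and between -1.09 and 3.11 in the others. The 16 immediate early genes differed by -0.14 in the median, and by 0.04 without decimal 15. The files hold no RNA integrity value, and the part of these quantities in the differences was not tested.

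The other cortical libraries were examined on their own, since differences among them, though in the same Gad2 measure, were not used to choose the low-Gad2 libraries. In a limma model of each gene on the Gad2 level there, with Benjamini-Hochberg adjustment over 15123 genes, 4644 genes (30.7%) had a positive slope and 4728 (31.3%) a negative one at an adjusted p under 0.05. A slope is the change in log2 level of a gene per log2 unit of Gad2. Without the 12 libraries of lowest Gad2 the positive slopes numbered 2887. With so many genes called, lists are read against these shares.

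Genes of the marker families differed in slope. Kif5c, Ccnd2 and Chrnb2 were named with earlier results of these data known, so their p-values are no fresh evidence. Chrnb2 had a slope of 0.64 ± 0.04 (SE, limma adjusted p = 3.66e-27), Ccnd2 0.61 ± 0.06 (6.35e-18), Kif5c 0.43 ± 0.05 (3.19e-11) and Gad1 0.32 ± 0.04 (4.29e-11). Kif5a did not pass the threshold (0.12 ± 0.09, adjusted p = 0.267), Kif5b had a negative slope of -0.22 (adjusted p = 0.00829), and Ccnd3 had one of -0.28. Kif5c, Kif5a and Kif5b had different slopes in the 2 identifier series: Kif5a, for example, had -0.12 in the decimal libraries and 0.74 in the E21DCD and reassigned ones (limma interaction, adjusted p = 0.00011). Slc32a1 (0.09, adjusted p = 0.0662) and Slc17a7 (0.01, adjusted p = 0.876) did not pass over both series together. Their slopes had opposite signs in the decimal and the E21DCD and reassigned libraries. These were 0.20 and -0.17 for Slc32a1 (limma interaction, adjusted p = 0.00114) and 0.11 and -0.21 for Slc17a7 (limma interaction, adjusted p = 0.00175).

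The most positive slopes among the genes with a mean of at least 3 were those of Slc7a14 (1.51), the Wnt receptor Fzd3 (1.49), the GABA-B receptor auxiliary subunit Kctd16 (1.46), Thsd7a (1.40), Adcy1 (1.36) and Mgam (1.35). In the low-Gad2 libraries the first 5 of these were below the others and Mgam differed by -1.32 with overlap. Among the most negative slopes were those of Mobp (-1.93), Mbp (-1.91), the protease Klk6 (-1.63), Ppp1r14a (-1.57) and Cldn11 (-1.53), of which Mobp, Mbp and Cldn11 are known from myelin. Medians of these 5 genes were higher in the low-Gad2 libraries, by 0.42 for Mobp to 1.80 for Ppp1r14a.

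By list, 36 of 38 complex I genes, 13 of 14 complex IV genes, 17 of 18 ATP synthase genes and 76 of 78 cytosolic ribosomal protein genes had a negative slope past the threshold, where the share of all genes was 31.3%. In complex I 1 gene was positive, Ndufs1 (0.21, adjusted p = 1.18e-05). On the other side, 22 of 25 sodium and calcium channel genes, 21 of 28 potassium channel genes, 25 of 28 synaptic adhesion genes, 16 of 20 large cytoskeletal genes and all 20 chromatin regulators were positive, where the share of all genes was 30.7%. All 14 oligodendrocyte genes, 13 of 14 microglial genes and 7 of 8 blood genes were negative. The GABAergic list had more positive than negative slopes, with 12 of 22 positive and 5 negative, where the shares of all genes were 30.7% and 31.3%. Reln had 1.03, while Pvalb (-0.68), Npy (-0.47), Cck (-0.32) and Sst (-0.28) were negative. Of these, Pvalb, Npy and Sst were picked after their values were seen, so they do not stand for the list. The span contrast of each library was also tried as a covariate, after seeing the data. The negative slopes over all genes then numbered 1647, of which 905 were among the 4728. The positive ones numbered 4169, of which 2188 were among the 4644. Npy (0.37), Cck (0.27) and Sst (0.47) then had positive slopes. The span contrast is made from the same levels and had Pearson's r of 0.81 with Gad2, so these slopes are no separate measurement.

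Slopes also followed span. The median slope was -0.16 for genes under 10 kb and 0.30 for genes over 300 kb, and 69.7% of genes over 300 kb had a positive slope past the threshold, against 9.98% of those under 10 kb.

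Across the other cortical libraries, 6 library measures were set against Gad2, with 100000 permutations and adjustment over the 6; the smallest p this allows is 1e-05. Both axes come from the same scaled libraries and so share depth and composition. The span contrast had Pearson's r of 0.81 (adjusted permutation p = 1e-05) and Spearman's rho of 0.77 (adjusted p = 1e-05), and r was 0.81 without the 2 libraries farthest from the median Gad2. Within the 56 decimal libraries r was 0.78, and within the 56 E21DCD and reassigned libraries 0.82. The mean of the sodium and calcium channel genes gave r = 0.82 and rho = 0.74 (both adjusted p = 1e-05) and r = 0.79 without the 2 farthest libraries, with 0.83 and 0.77 in the 2 series. The mean of the complex I genes gave r = -0.71, rho = -0.71 (both adjusted p = 1e-05) and r = -0.74 without the 2 farthest, with -0.69 and -0.66 in the 2 series.

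The mean of the oligodendrocyte genes was more loosely related to Gad2, at r = -0.51 and rho = -0.50 (both adjusted p = 1e-05), -0.46 without the 2 farthest libraries, -0.46 in the decimal and -0.43 in the E21DCD and reassigned libraries. Ribosomal RNA gave r = -0.26 (adjusted permutation p = 0.00688), rho = -0.23 (adjusted p = 0.0158) and r = -0.24 without the 2 farthest; it held in the decimal libraries (-0.55, permutation p = 4e-05) and did not pass in the E21DCD and reassigned ones (-0.21, permutation p = 0.113). Log2 summed counts had r = -0.17 (adjusted permutation p = 0.0656), rho = -0.02 (adjusted p = 0.869) and r = -0.17 without the 2 farthest, and took opposite signs in the decimal (-0.29) and the E21DCD and reassigned libraries (0.28).

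**Figure D4:**
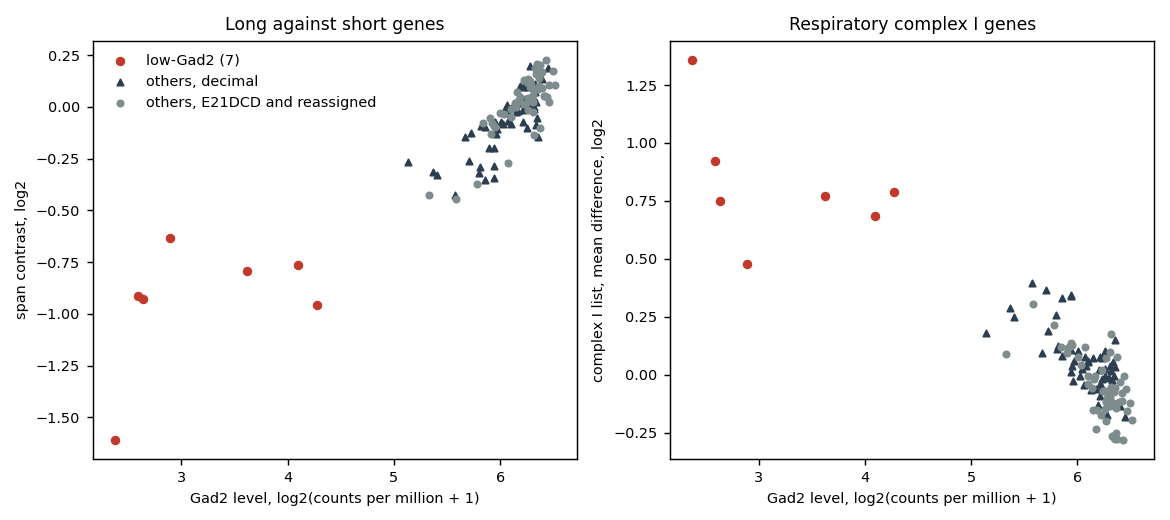
Span contrast (left) and mean deviation of the complex I genes (right), in log2 units, against the Gad2 level in log2(CPM + 1); each point is 1 cortical library, low-Gad2 (7), other decimal or other E21DCD and reassigned. The low-Gad2 libraries stand at span contrasts of -0.63 or less and complex I values of 0.48 or more, beyond the others, whose lowest span contrast is -0.45.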

How the data were processed

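The deposited table holds 38354 genes by 130 libraries, and the labels list 164 samples, of which 34 had no column and were not analysed here. Its values are log2(estimated count + 1); the authors quantified with kallisto 0.48, per the submitters' processing notes, and the deposited log2 values carry no scaling. The settings of kallisto and the strand protocol are not given in the sources used here. Values were turned back to counts, scaled to 1000000 per library and put on log2(CPM + 1). The filter kept genes whose mean reached 1 in the 119 cortical libraries, 15123 besides Gad2. Gene spans came from the RefSeq table of GRCr8, whose gene ends matched 38278 of 38278 deposited positions compared. Slopes were fitted with limma 3.58.1 (trend, two-sided) in R 4.3.3. The steps were run on simulated data with independent noise for each gene. Such data lack the variation that genes share across these libraries, so they do not show error control here. The other statistics used scipy 1.17.1. Members and gene lists were chosen with earlier results of these data known. Named genes were the 4 markers and their families, the 12 genes per direction with the largest difference among the separated genes with a median of at least 3 in the higher group and a symbol of no locus, pseudogene or copy, the 6 extreme slopes per direction, and the first 3 and extreme members of lists; Pvalb, Sst and Npy were named after their values were seen, and some genes these rules choose are not reported here. The labels do not say that libraries come from separate animals, so the p-values measure the spread between these libraries.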

Additional observations from a re-analysis of the deposited data

Results flagged for a closer look

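In 21 of the 92 sets of 7 low-Gad2 values examined, 1 library lay far from the other 6 by Dixon's criterion, which chance meets in about 1 of 20 sets; the far library was decimal 15 in 19 of them. Decimal 15 was lowest in Kif5b (5.69), Ccnd3 (4.16), Slc17a7 (9.58), Scn2a (6.31), Pclo (5.88), Vamp2 (10.04), Ndufs1 (4.86), Polr2b (3.78), Fos (0.35) and Kctd16 (0.30), in the mean deviations of the GABAergic (-0.77), glutamatergic (-1.29) and sodium and calcium channel genes (-1.77), and in the span contrast (-1.61). It was highest in Rplp2 (9.04), Cck (10.79), Ndufa3 (8.43), Rn45s (10.04) and the ribosomal RNA genes (4.86). Elsewhere E21DCD 49 was lowest in Kcnj9 (2.86) and E21DCD 4 lowest in Hba-a1 (6.84).

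Slopes on Gad2 within the other cortical libraries differed between the decimal and the E21DCD and reassigned libraries for 1855 of 15123 genes (12.3%; limma interaction, adjusted p under 0.05). Of the genes named here, the decimal slope was lower for Kif5c (difference -0.54), Kif5a (-0.86), Kif5b (-0.59), Adcy1 (-1.10), Lrrc58 (-0.53), Rorb (-0.50), Ank2 (-0.38) and Dst (-0.49). It was higher for Gad1 (difference 0.29), Rnasek (0.21), Slc32a1 (0.37), Sst (0.48), Slc17a7 (0.32) and Nrgn (0.57). Kif5c, Adcy1, Rorb, Lrrc58, Ank2 and Dst had positive slopes in both series, as Adcy1 shows at 1.03 in the decimal and 2.12 in the E21DCD and reassigned libraries.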

How the results depend on the processing

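The 948 genes below became 625 under median-of-ratios scaling, 1612 with E21DCD libraries only, 1613 without the 12 others of lowest Gad2, and 957 to 1131 when each low-Gad2 library was left out in turn (1110 without decimal 7 of the others, tried after seeing the data). The 240 genes above became 559 under median-of-ratios scaling, 390 with a total that omitted the 20 genes with the most counts, 813 with E21DCD libraries only, 387 without the 12 others of lowest Gad2, and 243 to 479 with 1 library left out, 479 being without decimal 15. Leaving out libraries of either group can only keep or raise the counts of genes below and above, so those rises test nothing. Of the main calls, 606 of 948 and 234 of 240 were shared with median-of-ratios scaling. Genes below were 68.4% of the separated genes with the 20 genes omitted, 66.5% with E21DCD libraries only and 67.2% without decimal 15.

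Positive slopes numbered 2887 without the 12 libraries of lowest Gad2 and negative ones 1647 with the span contrast as a covariate; 905 of these were among the 4728, and 2188 of that covariate's 4169 positive ones among the 4644. That covariate, the oligodendrocyte covariate and the splits by identifier series of the library measures were chosen after seeing the data. The span contrast is made from the same levels as the slopes and had Pearson's r of 0.81 with Gad2. With the span contrast as a covariate the slope took the other sign for Ccnd3 (0.003), Inafm1 (0.27), Atp5mpl (0.18), Cck (0.27), Sst (0.47), Npy (0.37), Dynlrb1 (0.11), Psmb3 (0.28), Polr2i (0.40), C1qb (0.088) and Hspe1 (0.25). It also did so within the E21DCD and reassigned libraries for Kif5b (0.20), Slc32a1 (-0.17) and Slc17a7 (-0.21), and with the oligodendrocyte covariate for Kif5b (0.12) and Slc17a7 (-0.10). Log2 summed counts related to Gad2 at 0.28 (permutation p = 0.0411) in the E21DCD and reassigned libraries and at -0.29 (p = 0.0292) in the decimal ones, and ribosomal RNA did not pass in the E21DCD and reassigned ones (-0.21). The causes were not tested. Of the remaining slopes, 832 kept direction and side of the threshold, 54 lost the threshold and 6 passed it. Bins of protein length were not run. No paired analysis was possible because replicate numbers only name libraries. Genes near 1 on the log2 scale rest on few counts, and 7 libraries limit all ranges.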

Other observations

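Further gene groups were described in the same way. Of 17 tubulin and actin genes, parts of the cytoskeleton encoded by short genes, 16 had a higher median in the low-Gad2 libraries than in the others, with a median difference of 0.37 and 1 gene above. The V-type ATPase, the proton pump of vesicles and lysosomes, gave 1 of 18 genes below and 1 above (0.26), and translation factors 3 of 70 below and 2 above (0.09), where 6.27% of all genes were below and 1.59% above. Among RNA-binding and splicing genes 1 of 20 was below and 0 above (-0.26), near the same 6.27%.

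Long noncoding RNA genes had a median difference of -0.14 (1088 genes), with 6 below and 4 above. Both shares were well under the 6.27% of all genes below and 1.59% above. Protein-coding genes had a median difference of -0.12 (13981 genes), with 941 below and 235 above, close to those shares. In the RefSeq promoter windows of GRCr8, from 250 bases before to 50 after the gene start, the median GC content was 64.7% for the genes below (775 of 948 with a window), 59% for those above (211 of 240) and 60.3% for all tested genes (12374 of 15123).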
